A study of Mus musculus with 97 samples.

Results

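Ripply2, Hmga2 and Olig2 are 3 regulators of transcription whose probes gave counts above background in captured regions of mouse brain. Matches of these probes to other transcripts were not analysed here, and nearly all marker genes lay at background, so whether each probe read its own transcript could not be checked, and every level is that of a probe. They were taken by name from a table of 19962 genes, and all 3 were among the 58 genes that passed a filter on low counts. They were selected on measured values: the difference between hippocampus and cortex in vehicle libraries for Ripply2 and Hmga2, and the differences between chemotherapy and vehicle. Those comparisons are therefore given as descriptions with no p-value. All libraries are of brain sections from older knock-in mice with a human APOE4 or APOE3 gene. The DD arm received doxorubicin (3 mg/kg weekly) with docetaxel (10 mg/kg weekly), the DC arm doxorubicin (3 mg/kg weekly) with cyclophosphamide (40 mg/kg weekly), and the vehicle arm 50% DMSO in PBS, by intraperitoneal injection given 2 times a week for 2 weeks. APOE4 and APOE3 mice each gave libraries of hippocampus and cortex after DD, DC and vehicle, 12 groups in all, of 8 libraries, or 9 for cortex of APOE3 mice after DD. No label links a captured region to an animal, so the library is the unit of every test. Regions of 1 animal within a group can make a p-value smaller than it should be. Hippocampus and cortex of 1 animal on opposite sides of a regional comparison can make it larger. Every APOE4 library lay on 1 collection plate and every APOE3 library on the other, so genotype and plate cannot be told apart.

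Ripply2 is a corepressor that recruits Groucho/TLE proteins to T-box factors, above all Tbx6, and ends the segmentation programme in forming somites of the embryo. Hmga2 is an AT-hook protein that bends and opens chromatin, is abundant in embryonic and fetal stem cells including neural ones, and is held down by the let-7 microRNAs as tissues mature. Olig2 is a basic helix-loop-helix factor that specifies motor neurons and oligodendrocytes in the embryo and stays on in oligodendrocytes and their precursors in the adult brain, where it binds E-boxes. Ripply2 is best known outside the brain, and Hmga2 from earlier life, so Olig2 is the member whose adult brain cell type is established.

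All 3 genes are protein-coding. In GRCm38.p6, the assembly of mm10, RefSeq places Ripply2 on chromosome 9 at 87015537 to 87020441, Hmga2 on chromosome 10 at 120361268 to 120476469, and Olig2 on chromosome 16 at 91225550 to 91228677. Their RefSeq promoters, 250 bases before to 50 after the start of the gene, are shown. Relative to the 58 genes, Ripply2 and Hmga2 were called higher in hippocampus and Olig2 was not. The capitals mark E-boxes (CANNTG) and the TATA box (TATAAA), searched on both strands, with no overlap between matches.
Ripply2, chr9:87015287-87015586 (+): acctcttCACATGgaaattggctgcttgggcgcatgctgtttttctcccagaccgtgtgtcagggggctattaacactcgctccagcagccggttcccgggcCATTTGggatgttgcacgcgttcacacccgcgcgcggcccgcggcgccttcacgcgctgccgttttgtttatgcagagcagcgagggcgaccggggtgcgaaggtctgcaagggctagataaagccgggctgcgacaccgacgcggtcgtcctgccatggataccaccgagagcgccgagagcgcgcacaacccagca
Hmga2, chr10:120476420-120476719 (-): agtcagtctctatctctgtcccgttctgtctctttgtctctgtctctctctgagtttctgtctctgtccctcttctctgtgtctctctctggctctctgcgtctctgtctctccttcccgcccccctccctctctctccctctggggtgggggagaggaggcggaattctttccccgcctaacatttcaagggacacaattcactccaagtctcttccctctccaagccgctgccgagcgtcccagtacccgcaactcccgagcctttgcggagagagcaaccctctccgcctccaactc
Olig2, chr16:91225300-91225599 (+): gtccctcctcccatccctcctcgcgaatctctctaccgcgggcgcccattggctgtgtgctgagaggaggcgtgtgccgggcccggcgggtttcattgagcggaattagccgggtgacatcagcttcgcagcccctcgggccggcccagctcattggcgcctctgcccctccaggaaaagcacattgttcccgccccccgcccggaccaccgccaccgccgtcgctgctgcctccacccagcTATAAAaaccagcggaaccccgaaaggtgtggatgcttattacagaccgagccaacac
The Ripply2 window holds 2 E-boxes and no TATAAA, the Olig2 window 1 TATAAA and no E-box, and the Hmga2 window neither. Of 32851 mouse promoters of the same length, 72.3% hold an E-box and 13.6% hold TATAAA. The share of G and C is 63.3% in the Ripply2 window, 57.7% in the Hmga2 window and 65% in the Olig2 window, against a median of 52.7% over all promoters. The 2 genes called higher in hippocampus thus share no searched motif in these windows.

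Gene expression was measured with the GeoMx Digital Spatial Profiler and its mouse Whole Transcriptome Atlas, in which ultraviolet light frees probe tags from a chosen region of a tissue section and the tags are sequenced. The deposited counts of a library summed to 21568 to 1850580 (medians of 61379.9 in APOE4 and 30579 in APOE3 libraries). The lowest value was 1 in 94 of 97 libraries, and in the median library 41.7% of the 19962 genes stood at 1. Low sums are therefore largely this floor and do not measure sequencing depth. The 58 tested genes held 717 to 14054 of the deposited counts, and Mtch2, a mitochondrial outer membrane protein, alone held 10.5% to 71.9% of those. Most genes were at background: the median over all genes was 0.923 times that of the negative probe, a control with no target, and 72 genes (0.361% of all) had a median over 2 times it. Regional identity could not be read from these libraries: none of the 7 cortex markers and none of the 9 hippocampus markers listed for this purpose was tested, and their highest median levels were 1.04 times (Lamp5) and 1.09 times (Ociad2) the negative probe. The negative probe stood at 5 or more in 13 libraries, all APOE4, and 6 of these were among the 8 APOE4 DC hippocampus libraries.

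Hmga2 stood over 2 times the negative probe in 97 of 97 libraries, Ripply2 in 96 and Olig2 in 88. Counts are per probe and depend on each probe's efficiency, so the levels of the 3 genes are not set against each other. Hmga2 had counts of 10, 79 and 291 (lowest, median and highest over all libraries), Ripply2 of 3, 36 and 193 and Olig2 of 1, 14 and 117. Olig2 was the thinnest measurement, with under 10 counts in 34 of 97 libraries, 22 of 48 in hippocampus and 12 of 49 in cortex, where the lowest value in the files is 1. Ripply2 had under 10 counts in 8 libraries and Hmga2 in 0. The values over the negative probe were not alike across groups. Olig2 lay at 1.26, 1.41 and 6.82 times the negative probe in APOE4 DC hippocampus (lowest, median and highest), against 3.26, 4.69 and 7.98 times in APOE4 vehicle hippocampus. Ripply2 lay at 1.36, 4.46 and 23.9 times in APOE4 DC hippocampus, against 13.3, 22.2 and 30.5 times in APOE4 vehicle hippocampus. Hmga2 lay at 2.11, 9.03 and 67.4 times in APOE4 DC hippocampus, against 37.3, 46.6 and 78.9 times in APOE4 vehicle hippocampus. In that DC group the negative probe itself was higher, with a median of 10.9 against 2.03 in vehicle (two-sided exact permutation p = 0.00466, adjusted p = 0.0218 over 24 comparisons), and 5 of its 8 libraries gave no Olig2 signal over 2 times background.

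**Figure D1:**
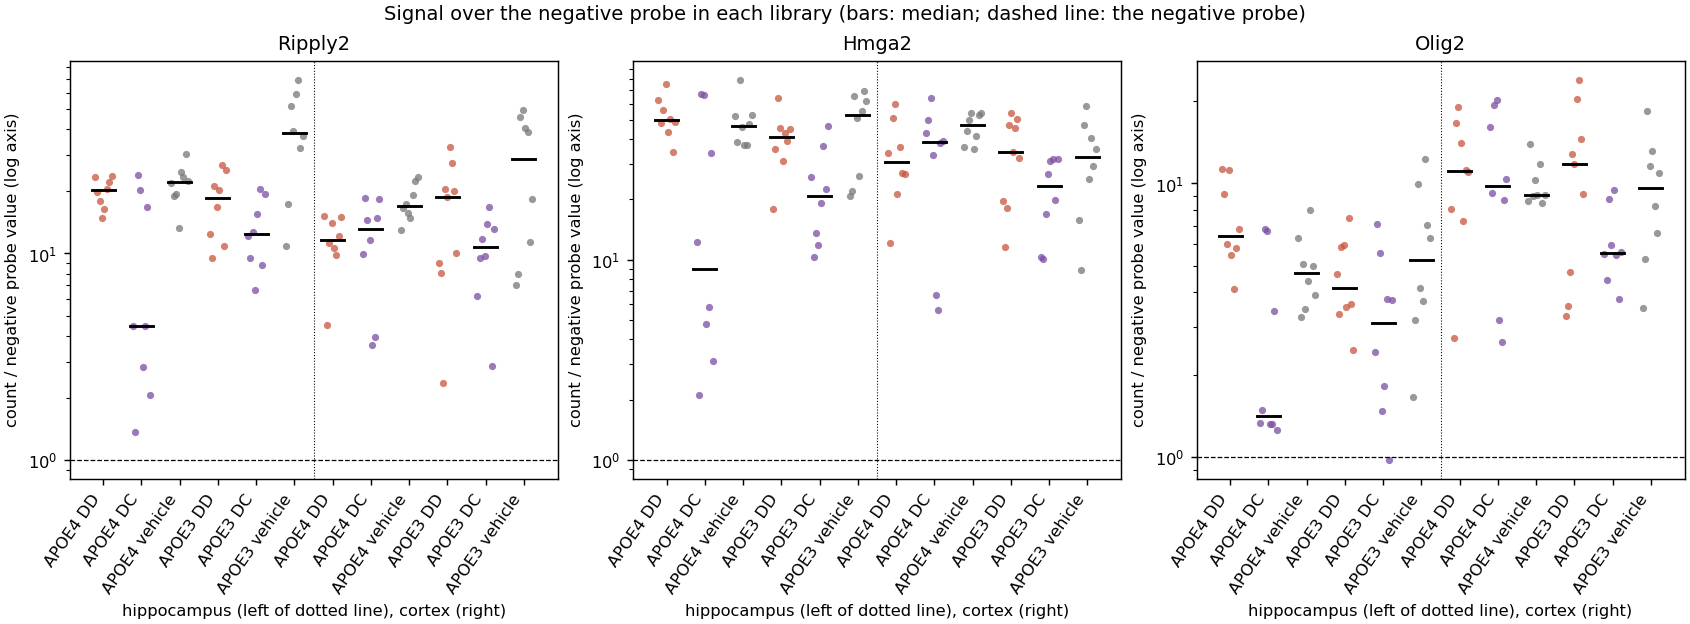
Count of each gene divided by the negative probe value of the same library (log axis), with 1 point per library, bars at the group medians and a dashed line at the negative probe; hippocampus groups stand left of the dotted line and cortex groups right of it. In APOE4 DC hippocampus the medians are 4.46 for Ripply2, 9.03 for Hmga2 and 1.41 for Olig2, against 22.2, 46.6 and 4.69 in APOE4 vehicle hippocampus.

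Levels were put on one scale as CPM, the counts of a gene relative to those of all tested genes in its library, with TMM scaling over all 12 groups. Ripply2 was the member whose level varied most by group. Its mean log2 CPM was highest in APOE3 vehicle hippocampus at 14.86 ± 0.53 (SD, n = 8) and lowest in APOE4 DD cortex at 12.51 ± 0.32 (SD, n = 8). Of the 11 steps between neighbours in that order, 1 exceeded the larger SD of its neighbours: APOE3 vehicle hippocampus lay 0.76 above APOE3 DC hippocampus, next in order. The other hippocampus groups followed, with APOE3 vehicle cortex between APOE4 DD and APOE4 DC hippocampus, and the 5 remaining cortex groups came last. Hmga2 had its highest mean in APOE4 vehicle hippocampus, 15.17 ± 0.40, and its lowest in APOE3 DC cortex, 13.79 ± 0.93 (SD, n = 8 each). All 6 hippocampus groups stood above all 6 cortex groups in this order, though the means of APOE4 DC hippocampus and APOE4 vehicle cortex differed by only 0.02, and 0 of 11 steps exceeded the SD. Olig2 means lay between 12.42 ± 0.23 in APOE4 DC cortex and 12.01 ± 0.24 in APOE4 vehicle hippocampus (SD, n = 8 each). No step in the Olig2 order exceeded the SD (0 of 11), and hippocampus and cortex groups were mixed in it.

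**Figure D2:**
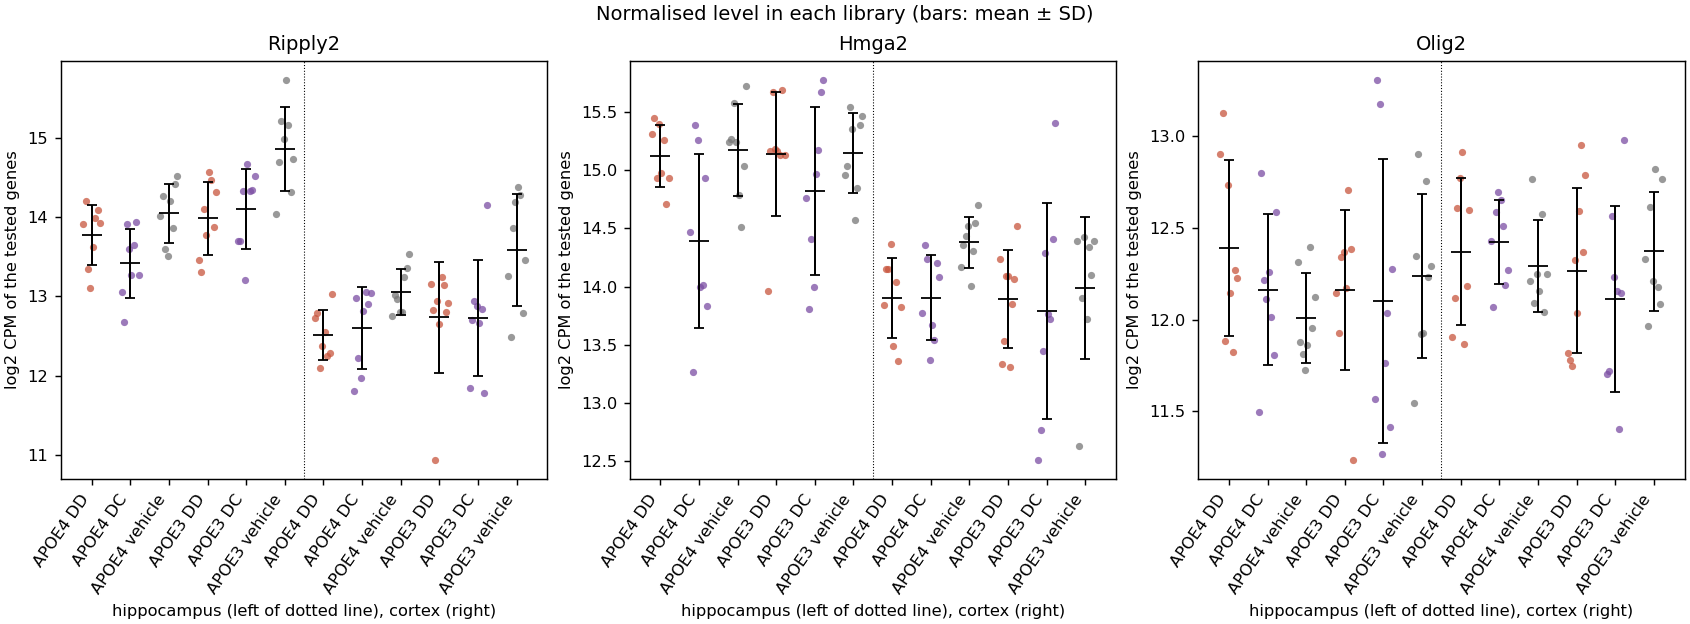
Normalised level of each gene as log2 CPM of the tested genes, with 1 point per library and bars for mean ± SD in each of the 12 groups; hippocampus groups stand left of the dotted line and cortex groups right of it. Ripply2 means run from 14.86 in APOE3 vehicle hippocampus to 12.51 in APOE4 DD cortex, and Olig2 means lie between 12.42 and 12.01.

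Relative to the tested genes, Ripply2 was higher in hippocampus than in cortex in both genotypes and after every treatment, by 1.78- to 2.69-fold, while scaled to the negative probe its APOE4 DC difference turned to log2 -0.40. The levels that follow are the lowest, median and highest library of each group. In APOE4 DD libraries Ripply2 had 8370.3, 14983 and 18346 CPM in hippocampus, against 3896, 5175 and 7857 CPM in cortex. In APOE3 DD libraries it had 9663, 15834 and 23824 CPM in hippocampus, against 1481, 7246 and 9209 CPM in cortex. These 2 pairs of groups did not overlap. How many of the 58 genes had groups without overlap was not counted, so this is a description and not a trait of Ripply2. After DC, Ripply2 had in APOE4 mice 6071, 10619 and 15204 CPM in hippocampus, against 3119, 6958 and 8024 CPM in cortex. In APOE3 DC libraries it had 8955, 20092 and 25510.4 CPM in hippocampus, against 3033, 6519 and 17686 CPM in cortex. The DC groups overlapped, in APOE3 through cortex library 8 alone, at 17686 CPM against 7422 CPM in the next. In APOE4 vehicle libraries it had 11144, 17208 and 22865 CPM in hippocampus, against 6397, 7639.7 and 11337 CPM in cortex. In APOE3 vehicle libraries Ripply2 had 16359.9, 29277 and 53703 CPM in hippocampus, against 5275, 12583 and 20768 CPM in cortex. In the vehicle groups, 7 of 8 APOE4 and 6 of 8 APOE3 hippocampus libraries lay above every cortex library, and all 48 hippocampus libraries lay above the mean of the cortex group of their own genotype and treatment. The comparisons after DD and DC use other libraries than the vehicle ones, but they are not independent of the choice. In the fit, each equals the vehicle regional difference, plus the regimen's difference from vehicle in hippocampus, minus that in cortex. All of these were known when the genes were chosen, so the p-values that follow are descriptions and not independent tests. They come from edgeR's quasi-likelihood test, with Benjamini-Hochberg adjustment over the 58 genes. Ripply2 was called higher in 4 of 4, with log2 differences of 1.32 in APOE4 DD (SE 0.22, adjusted p = 1.46e-07), 1.21 in APOE3 DD (SE 0.24, adjusted p = 6.60e-06), 0.84 in APOE4 DC (SE 0.21, adjusted p = 3.85e-04) and 1.43 in APOE3 DC (SE 0.27, adjusted p = 5.07e-06). In those 4 comparisons 33.2% of gene tests were called higher and 58.6% in either direction (62.1% in APOE4 DD, 58.6% in APOE3 DD, 62.1% in APOE4 DC and 51.7% in APOE3 DC), so a call is common among the 58 genes. In vehicle libraries the differences, known when the gene was chosen, were 1.02, SE 0.22 in APOE4 and 1.20, SE 0.23 in APOE3, and both were called, as were 56.9% and 51.7% of all tested genes. Over all 6 comparisons 31.6% of gene tests were called higher and 57.2% in either direction. Captured regions hold many cells, so more cells of a type and more RNA per cell cannot be told apart.

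Hmga2 was also higher in hippocampus relative to the tested genes in all 6 comparisons, by 1.51- to 2.45-fold, and it too turned in APOE4 DC when scaled to the negative probe (log2 -0.55). In APOE4 DD libraries Hmga2 had 26387, 35236 and 44219 CPM in hippocampus, against 10073, 15291 and 20646 CPM in cortex. In APOE3 DD libraries Hmga2 had 15539, 36316 and 52300.4 CPM in hippocampus, against 9694, 16728 and 23054 CPM in cortex. The APOE4 DD groups did not overlap, and in APOE3 DD 1 hippocampus library lay within the cortex range. After DC, Hmga2 had in APOE4 mice 9393, 19139 and 42324 CPM in hippocampus, against 10116, 15198 and 20559 CPM in cortex. In APOE3 DC libraries Hmga2 had 13914, 29392 and 55581 CPM in hippocampus, against 5360.1, 13222 and 42952 CPM in cortex. Both DC pairs overlapped widely, and 6 of 8 APOE4 DC hippocampus libraries lay above the cortex mean, against 8 of 8 in APOE3 DC. In APOE4 vehicle libraries Hmga2 had 22891, 38292 and 53682 CPM in hippocampus, against 16017, 21076 and 26209.9 CPM in cortex. In APOE3 vehicle libraries Hmga2 had 23868, 37249.8 and 47386 CPM in hippocampus, against 5861, 18729 and 21599 CPM in cortex. The APOE3 vehicle groups did not overlap. For Hmga2 too, the share of tested genes without overlap was not counted. As for Ripply2, the differences after DD and DC follow in the fit from values known when the gene was chosen, so their p-values are descriptions. Hmga2 was called higher in 4 of 4 of these comparisons: log2 1.22, SE 0.23, adjusted p = 1.82e-06 in APOE4 DD, and log2 1.29, SE 0.24, adjusted p = 1.80e-06 in APOE3 DD. The values were log2 1.11, SE 0.27, adjusted p = 3.27e-04 in APOE3 DC, and log2 0.60, SE 0.23, adjusted p = 0.0159 in APOE4 DC, in edgeR's test. In these 4 comparisons 33.2% of gene tests were called higher and 58.6% in either direction, so such a call is common. The APOE4 DC call was the weakest and ended without hippocampus library 3 (log2 0.43, adjusted p = 0.0885) or library 4 (log2 0.47, adjusted p = 0.0630), both with a negative probe under 5. It also ended with runs of neighbouring wells as a random block (log2 0.53, adjusted p = 0.0709) and with counts summed over those runs (log2 0.23, adjusted p = 0.505). In vehicle libraries the differences were 0.83, SE 0.23 in APOE4 and 1.14, SE 0.25 in APOE3.

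Olig2 was not called in any of the 6 regional comparisons under TMM, where 57.2% of all regional gene tests were called in either direction. Scaled to the negative probe it was lower in hippocampus and called in 3, where 54.9% of all regional gene tests were called in either direction. With counts summed over runs of neighbouring wells it was also called in 3, where 66.1% of all regional gene tests were called. In APOE4 DD libraries Olig2 had 3149, 4387 and 8467 CPM in hippocampus, against 3265, 4938 and 7237 CPM in cortex. In APOE3 DD libraries Olig2 had 1933, 4427 and 6193 CPM in hippocampus, against 2961, 4647 and 7448 CPM in cortex. After DC, Olig2 had in APOE4 mice 2418, 4121 and 6644 CPM in hippocampus, against 3815, 5187 and 6158 CPM in cortex. The groups overlapped in each of these pairs. In APOE3 DC libraries Olig2 had 1990.0, 3365 and 9633 CPM in hippocampus, against 2229.8, 4067 and 7579.7 CPM in cortex. In APOE4 vehicle libraries Olig2 had 2907, 3393 and 4905 CPM in hippocampus, against 3745, 4327 and 6483 CPM in cortex. In APOE3 vehicle libraries Olig2 had 2517, 4437 and 7163 CPM in hippocampus, against 3516, 4467 and 6762 CPM in cortex. These overlapped as well, and the APOE3 DC hippocampus libraries spread most, from 1 to 9 counts. The fitted differences ran from -0.29 in APOE4 vehicle to 0.27 in APOE3 DC, and 4 of 6 were below 0. Their 95% intervals were -0.35 to 0.42 in APOE4 DD, -0.65 to 0.29 in APOE3 DD, -0.57 to 0.15 in APOE4 DC and -0.31 to 0.85 in APOE3 DC. Under TMM a 2-fold difference (log2 1) lies outside the APOE3 intervals. Olig2 had under 10 counts in 8 of 8 APOE3 DC and 6 of 8 APOE3 DD hippocampus libraries, near the lowest value of 1. A 2-fold difference is therefore not excluded there either. In APOE4 the unadjusted p-values of edgeR's test, 0.945 after DD and 0.405 after DC, were larger than the SE implies. The APOE4 intervals may therefore be too narrow, and no difference is excluded from them. The lowest adjusted p was 0.429.

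**Figure D3:**
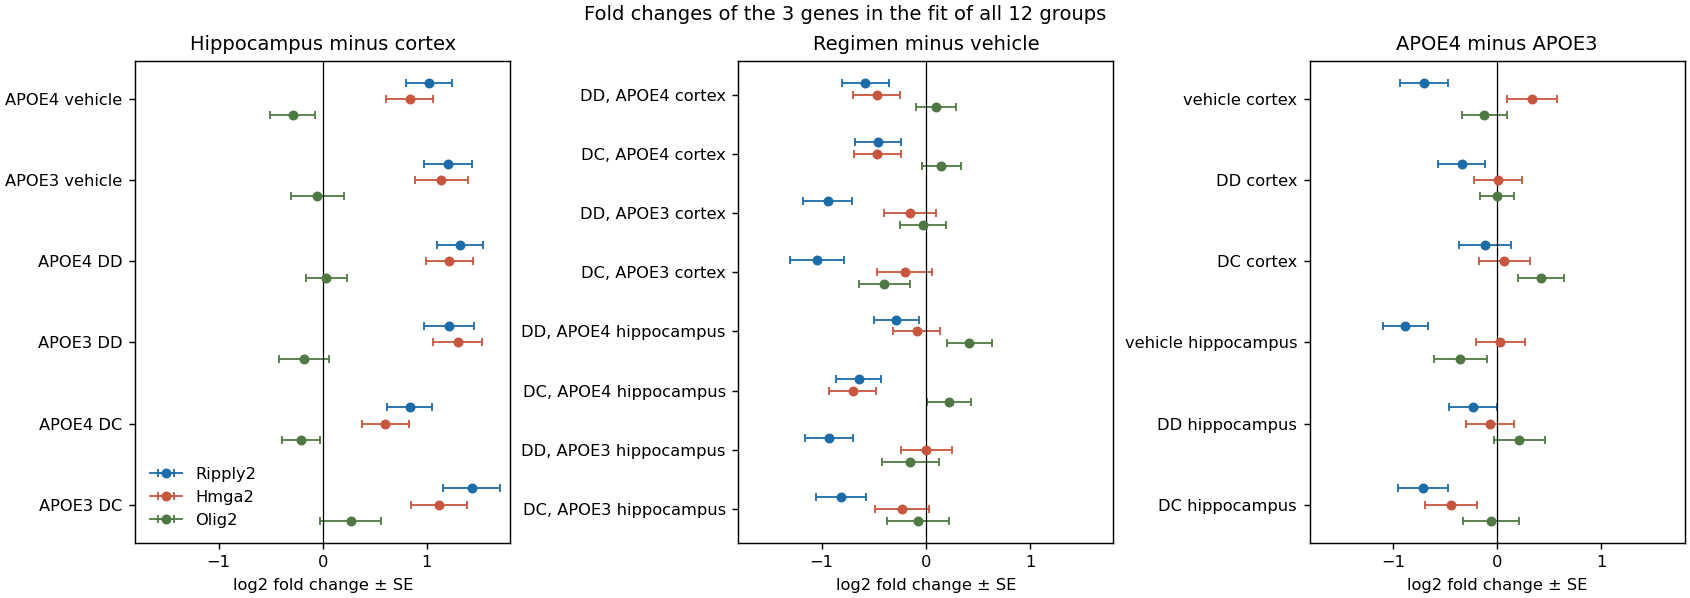
Log2 fold changes ± SE of Ripply2, Hmga2 and Olig2 from the fit of all 12 groups, for hippocampus minus cortex (left), each regimen minus vehicle (middle) and APOE4 minus APOE3 (right); the vertical line marks no difference. Ripply2 lies at 0.84 to 1.43 and Hmga2 at 0.60 to 1.29 in the regional panel, against -0.29 to 0.27 for Olig2, and Ripply2 lies below 0 in every row of the other panels; scaled to the negative probe, 1 regional and 2 genotype differences of Ripply2 change sign.

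These differences are relative to the other tested genes, and the regional ones depend on what a library is scaled to. Scaled to the negative probe instead, the median tested gene was itself lower in hippocampus, by log2 -1.61 to -0.72 over the 6 comparisons. Ripply2 then differed by -0.40 to 0.79 and Hmga2 by -0.55 to 0.64, with 0 of 6 called for either and with the APOE4 DC difference below 0 for both. Olig2 was then lower in hippocampus in 6 of 6 comparisons, by log2 -2.11 to -0.56, and called in 3. Under that scaling 54.9% of all regional gene tests were called in either direction. Against the median tested gene, Ripply2 stood 1.18 to 1.56 and Hmga2 0.98 to 1.55 above it under that scaling, and 0.52 to 1.59 and 0.29 to 1.52 above it under TMM. Scaling moves all genes of a library alike, so the order of the 3 genes is not separate evidence under each scaling. The direction of the APOE4 DC differences of Ripply2 and Hmga2 depended on the scaling. In APOE3 libraries the negative probe lay at only 1.02 to 2.96, near the lowest deposited value of 1. In APOE3 hippocampus its median was 1.26 after DC and 1.27 in vehicle. The summed counts of the tested genes had medians of 962 and 3038.5 in the same groups. Scaling to the negative probe may therefore correct little for depth in APOE3 libraries.

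**Figure D4:**
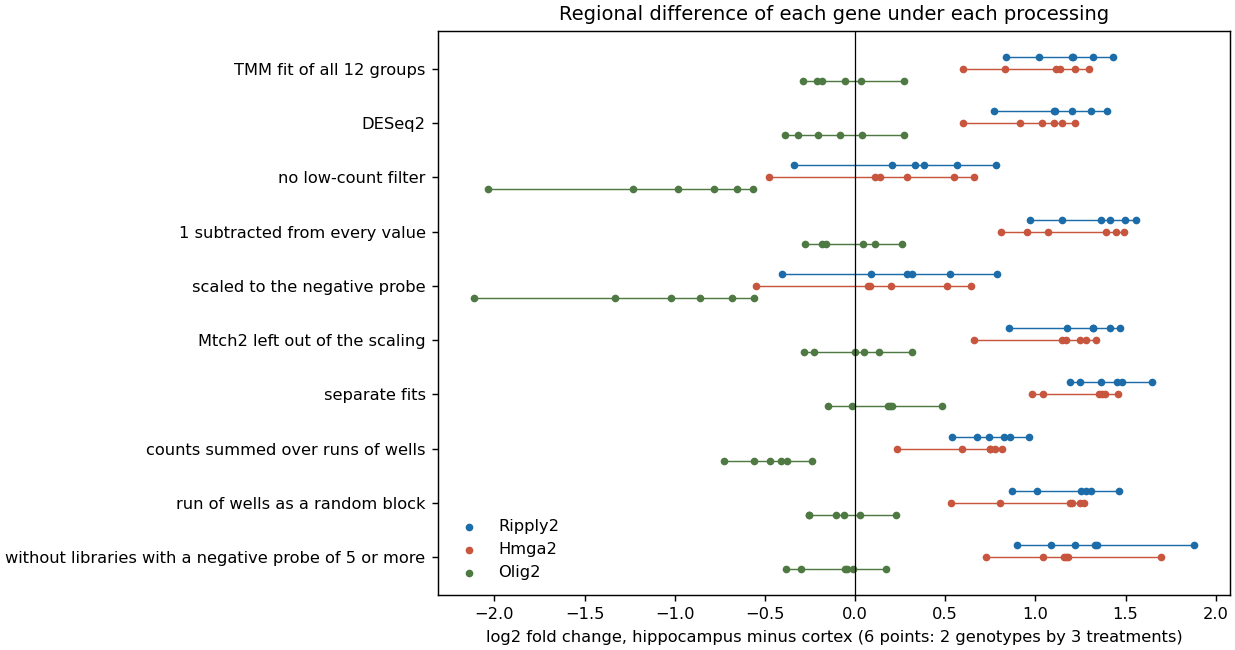
Log2 difference of hippocampus minus cortex for each gene under each way of processing (rows), with 1 point for each of the 6 combinations of genotype and treatment joined by a line from lowest to highest. Scaled to the negative probe, Ripply2 runs from -0.40 to 0.79 and Olig2 from -2.11 to -0.56, against 0.84 to 1.43 and -0.29 to 0.27 under TMM.

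A ratio of 2 genes within a library is free of any scaling; these ratios were chosen after the values had been seen and are given with no test. They compare counts of 2 probes, so their level is not a ratio of RNA amounts. Ripply2 over Olig2 had a median of 3.82 over 48 hippocampus libraries, against 1.6 over 49 cortex libraries, and 45 of 48 hippocampus libraries lay above the cortex median. Hmga2 over Olig2 had a median of 8.96 in hippocampus, against 3.52 in cortex, with 44 of 48 above the cortex median. The regional log2 difference was 1.17 to 1.47 for Ripply2 over Olig2 and 0.80 to 1.39 for Hmga2 over Olig2, positive in 6 of 6 comparisons for each. Ripply2 over Hmga2 had medians of 0.506 in hippocampus and 0.437 in cortex, a regional log2 difference of 0.06 to 0.38, under 2 SE in every comparison. Relative to Olig2, both Ripply2 and Hmga2 were thus higher in hippocampus in 6 of 6 comparisons. For Hmga2 over Olig2 the difference was under 2 SE in APOE4 DC (log2 0.80, SE 0.44), and it was 1.09, SE 0.53 in APOE3 DC. That Ripply2 over Hmga2 stayed under 2 SE does not show that their regional differences were equal. Against Mtch2, which took the most counts, Ripply2 was not higher in hippocampus: the log2 difference of Ripply2 over Mtch2 was -0.41 to 0.09, and 9 of 48 hippocampus libraries lay above the cortex median.

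**Figure D5:**
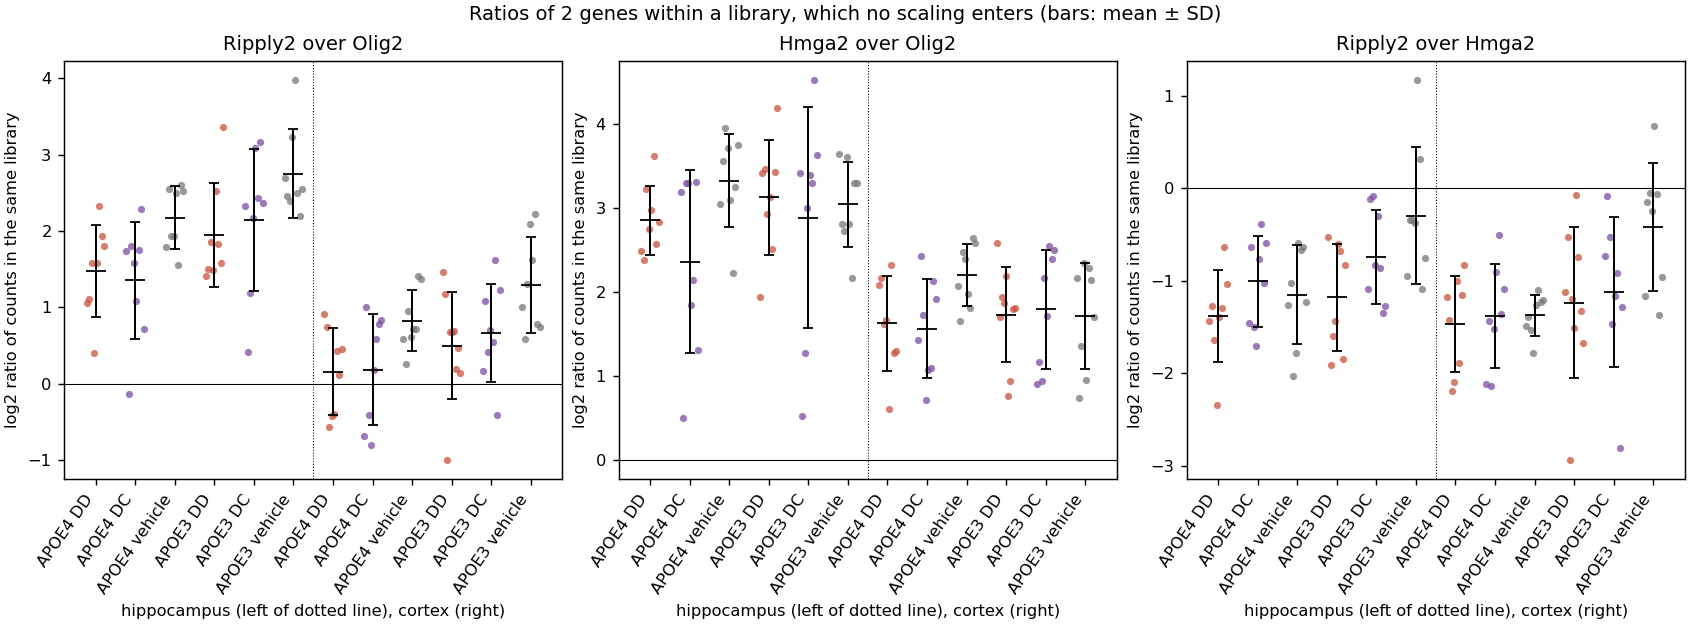
Log2 ratio of the counts of 2 genes in the same library, with 1 point per library and bars for mean ± SD in each group; hippocampus groups stand left of the dotted line and cortex groups right of it. The medians are 3.82 in hippocampus and 1.6 in cortex for Ripply2 over Olig2, and 0.506 and 0.437 for Ripply2 over Hmga2, as plain ratios.

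The treatment comparisons were known when the genes were chosen, and DD and DC share the same vehicle libraries within each genotype and region. Ripply2 was below vehicle in all 8, under TMM and under negative-probe scaling alike, and was called lower in 5 (3 under negative-probe scaling and 1 with counts summed over runs of wells), where 5.6% of all gene tests in these comparisons were called lower and 9.91% in either direction. The share of tested genes called in APOE3 cortex was 3.45% after DD and 13.8% after DC, and in APOE3 hippocampus 1.72% after DD and 10.3% after DC. In APOE3 cortex Ripply2 had 1481, 7246 and 9209 CPM after DD and 3033, 6519 and 17686 CPM after DC, against 5275, 12583 and 20768 CPM in vehicle. In APOE3 hippocampus it had 9663, 15834 and 23824 CPM after DD and 8955, 20092 and 25510.4 CPM after DC, against 16359.9, 29277 and 53703 CPM in vehicle. Each group overlapped with vehicle, and every treated library lay below its vehicle mean except 1 of the 8 DC cortex libraries. The APOE3 differences were -0.94, SE 0.23 after DD and -1.04, SE 0.26 after DC in cortex. In APOE3 hippocampus they were -0.93, SE 0.23 after DD and -0.82, SE 0.24 after DC, all 4 called. The hippocampus calls ended without APOE3 vehicle hippocampus library 5, the highest at 53703 CPM, at -0.79 for DD and -0.67 for DC, and the DC call also ended without APOE3 DC hippocampus library 4 (-0.71). In APOE3 hippocampus the summed counts of the tested genes were lower after DC too, with a median of 962 after DC, against 3038.5 in vehicle (two-sided exact permutation p = 0.00109, adjusted p = 0.0082 over 24 comparisons). The part of this depth in the Ripply2 difference was not tested.

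In APOE4 mice Ripply2 was also below vehicle in all 4 comparisons and called in 1. The differences were -0.58, SE 0.22 after DD and -0.46, SE 0.22 after DC in cortex, both not called, although 8 of 8 libraries of each lay below the vehicle mean. In APOE4 cortex 0% of the tested genes were called for either regimen. In hippocampus Ripply2 differed by -0.28, SE 0.22 after DD, not called (5.17% of tested genes were), and by -0.65, SE 0.21 after DC, called, in a comparison in which 44.8% of all tested genes were called. Ripply2 had 6071, 10619 and 15204 CPM in APOE4 DC hippocampus, against 11144, 17208 and 22865 CPM in APOE4 vehicle hippocampus. Without the 13 libraries with a negative probe of 5 or more, which leaves 2 libraries in APOE4 DC hippocampus, the difference was 0.01 (SE 0.33). It was -0.45 and not called without APOE4 DC hippocampus library 2 alone.

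Hmga2 was below vehicle in 7 of 8 treatment comparisons, by log2 -0.70 to -0.09. It was called in 1, DC in APOE4 hippocampus (-0.70, SE 0.23), where 44.8% of all tested genes were called. There Hmga2 had 9393, 19139 and 42324 CPM after DC, against 22891, 38292 and 53682 CPM in vehicle, and 6 of 8 libraries lay below the vehicle mean. Without the libraries with a negative probe of 5 or more it was 0.43 (SE 0.30), the opposite direction, and without APOE4 DC hippocampus library 2 it was -0.43 and not called. In APOE4 cortex Hmga2 differed by -0.47, SE 0.23 after DD and -0.47, SE 0.23 after DC, with 8 of 8 libraries of each below the vehicle mean and neither called. In APOE3 libraries the 4 values ran from -0.23 to 0.01. Olig2 was called in 0 of 8, where 9.91% of all gene tests were called, with 4 differences above and 4 below 0. They ran from -0.40 (SE 0.25) for DC in APOE3 cortex to 0.42 (SE 0.22) for DD in APOE4 hippocampus, where 6 of 8 libraries lay above the vehicle mean. Within libraries, the log2 difference of Ripply2 over Olig2 from the shared vehicle libraries was -0.82 to -0.61 over the 8 comparisons. Ripply2 over Mtch2 was above vehicle in 4 of 4 comparisons after DC, by log2 0.17 to 0.54, the opposite direction to Ripply2 relative to the tested genes. After DD it was below vehicle in 3 of 4, at -0.17 to 0.08.

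Relative to the tested genes, Ripply2 was lower in APOE4 than in APOE3 libraries in all 6 genotype comparisons and called in 3 (scaled to the negative probe, in 4 of 6 and called in 0; with runs of neighbouring wells as a random block called in 1, and with counts summed over the runs in 0), where 10.3% of all gene tests were called lower and 18.1% in either direction. The share called in hippocampus was 25.9% in vehicle, 5.17% after DD and 17.2% after DC, and in cortex 22.4%, 13.8% and 24.1% in the same order. In vehicle hippocampus Ripply2 had 11144, 17208 and 22865 CPM in APOE4, against 16359.9, 29277 and 53703 CPM in APOE3 (log2 -0.88, SE 0.22, adjusted p = 6.95e-04 in edgeR's test). In vehicle cortex it had 6397, 7639.7 and 11337 CPM in APOE4, against 5275, 12583 and 20768 CPM in APOE3 (log2 -0.70, SE 0.23, adjusted p = 0.0252). The DC libraries had entered the known treatment comparisons. In DC hippocampus it had 6071, 10619 and 15204 CPM in APOE4, against 8955, 20092 and 25510.4 CPM in APOE3 (log2 -0.71, SE 0.24, adjusted p = 0.0308). The groups overlapped in each, and 8 of 8 APOE4 libraries lay below the APOE3 mean in each. The vehicle libraries are those that served as the baseline of the treatment comparisons on which Ripply2 was chosen, so these calls are not independent of the choice. The other 3 differences were -0.34 (SE 0.23) in DD cortex, -0.12 (SE 0.25) in DC cortex and -0.23 (SE 0.23) in DD hippocampus, not called. Against the median tested gene, Ripply2 stood -0.70 to -0.21 under TMM and -0.70 to -0.25 under negative-probe scaling, a position that the choice of scaling hardly enters. The vehicle cortex call ended without APOE4 vehicle cortex library 4 (adjusted p = 0.107) or APOE3 vehicle cortex library 4, 5 or 6 (adjusted p = 0.0554 to 0.0742). The DC hippocampus call ended without any 1 of 6 libraries, 2 from APOE4 and 4 from APOE3 (adjusted p = 0.0521 to 0.0903). It was -0.15 (SE 0.35) without the libraries with a negative probe of 5 or more. The negative probe was higher in APOE4 in all 6 comparisons, for example at a median of 2.03 in APOE4 against 1.27 in APOE3 vehicle hippocampus (two-sided exact permutation p = 0.000155, the smallest this design can give, adjusted p = 0.00186), and its part in the Ripply2 difference was not tested.

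In the 6 genotype comparisons 18.1% of all gene tests were called in either direction. Hmga2 differed by log2 -0.45 to 0.33 and was called in 0 of 6 (0 with an unadjusted p under 0.05, lowest adjusted p 0.211). Its largest difference was in DC hippocampus, -0.45, SE 0.25, with a 95% interval of -0.93 to 0.04. In vehicle hippocampus, where Ripply2 was called lower, Hmga2 had 22891, 38292 and 53682 CPM in APOE4, against 23868, 37249.8 and 47386 CPM in APOE3, nearly the same range. Olig2 differed by -0.36 to 0.42 and was called in 0 of 6 (0 with an unadjusted p under 0.05, lowest adjusted p 0.151). Its highest value was in DC cortex, 0.42, SE 0.22, where 7 of 8 APOE4 libraries lay above the APOE3 mean. Within libraries, Ripply2 over Hmga2 was lower in APOE4 in 6 of 6 comparisons, by log2 -0.96 in vehicle cortex (SE 0.26) and -0.86 in vehicle hippocampus (SE 0.32) and by -0.27 to -0.20 in the other 4. Ripply2 and Hmga2, both higher in hippocampus relative to the tested genes, thus differed from each other in their genotype difference in vehicle libraries. Against Mtch2, Ripply2 was not lower in APOE4. The log2 difference of Ripply2 over Mtch2 ran from -0.14 to 0.26 and was above 0 in 5 of 6 comparisons. It was 0.15 (SE 0.20) in vehicle cortex and 0.25 (SE 0.17) in vehicle hippocampus, the opposite direction to Ripply2 relative to the tested genes.

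DD and DC were compared directly in each genotype and region. In the fit, each such difference equals the DD minus vehicle difference less the DC minus vehicle difference. Both were known when the genes were chosen, so the p-values here are descriptions and not independent tests. Hmga2 was higher after DD than after DC in APOE4 hippocampus (log2 0.61, SE 0.22, adjusted p = 0.0215 in edgeR's test), with 26387, 35236 and 44219 CPM after DD, against 9393, 19139 and 42324 CPM after DC. All 8 DD libraries lay above the DC mean, and the groups overlapped. In this comparison 51.7% of all tested genes were called, and 25.9% were called higher, while 0% were called in the other 3 (12.9% over all 4). The DC libraries are also those of the treatment comparison on which Hmga2 was known to be lower, and 6 of 8 had a negative probe of 5 or more. The call ended without APOE4 DC hippocampus library 2 (log2 0.36, adjusted p = 0.256), 6 (adjusted p = 0.0527) or 8 (adjusted p = 0.0691), and without all libraries with a high negative probe the value was -0.48 (SE 0.31). It also ended in separate fits (log2 0.33, adjusted p = 0.315) and with summed counts (log2 0.59, adjusted p = 0.0776). The other 3 Hmga2 differences were -0.0050 in APOE4 cortex, 0.05 in APOE3 cortex and 0.24 in APOE3 hippocampus. Ripply2 and Olig2 were not called in any of the 4 (0 with an unadjusted p under 0.05 for each). Their values ran from -0.12 to 0.36 for Ripply2 and from -0.08 to 0.37 for Olig2, with lowest adjusted p of 0.144 and 0.377.

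Whether effects differed between genotypes or regions was tested as 11 interactions for each gene, and 0 of the 33 were called, where 2.35% of all gene tests were called. Most are differences between the treatment or vehicle regional differences on which the genes were chosen, so they are given as descriptions and not as independent tests. The Ripply2 effect of DD in hippocampus was less negative in APOE4 than in APOE3, by log2 0.65, SE 0.32, not called and the only 1 of the 33 with an unadjusted p under 0.05. For DC in cortex that difference was 0.59, SE 0.34, with a 95% interval of -0.07 to 1.25. For the regional difference of Ripply2, the interaction with genotype was -0.18, SE 0.32 in vehicle, 0.11, SE 0.32 after DD and -0.59, SE 0.35 after DC. For Hmga2 the same values were -0.31, -0.08 and -0.52, and for Olig2 -0.23, 0.22 and -0.48, with SE of 0.31 to 0.35. The 95% interval of the Ripply2 value after DC was -1.27 to 0.08, so a 2-fold difference between genotypes lies within it.

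By a fixed measure of likeness, the Pearson correlation of log2 CPM, the genes with the pattern most like Ripply2 over the 12 group means were Mtch2 (r = 0.977), Erlin2 (r = 0.935) and Gm33888 (r = 0.894). Those most like Hmga2 were Gm46840 (r = 0.977), Gm33888 (r = 0.965) and Xrn1 (r = 0.965), and Ripply2 and Hmga2 correlated with each other at r = 0.872. Olig2 correlated at r = -0.398 with Ripply2 and -0.40 with Hmga2 (0.171 and 0.462 when 1 was subtracted and values were scaled to the negative probe), and was nearest to Coa5 (r = 0.833), Marcks (r = 0.782) and Tysnd1 (r = 0.755). The 12 means share libraries, scaling and the regional difference. After taking off each group mean, the 97 libraries gave r = 0.573 for Ripply2 with Mtch2, 0.50 with Xrn1, an exoribonuclease, and 0.484 with Txlnb, a taxilin. Hmga2 correlated at 0.706 with Gm46840, 0.686 with Xrn1 and 0.578 with Mtch2. Ripply2 and Hmga2 thus kept a positive correlation between single libraries (r = 0.402). For Olig2 the highest values were 0.241 with Vmn1r189, 0.239 with Calm2 and 0.234 with AI413582, with a correlation of 0.222 with Ripply2 and 0.048 with Hmga2. Libraries share depth and background, and Mtch2 weighs on every scaled value, so these are descriptions only.

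Genes that are known to work with the 3 regulators were at background. None of the 23 genes of somite segmentation (among them Ripply1, Tbx6, Mesp2 and the Tle corepressors) was tested. Their median lay at 0.896 times the negative probe, and the highest were Dll1, a Notch ligand, at 1.07 times and Epha4, an ephrin receptor, at 1.01 times. None of the 21 genes around Hmga2 (its paralogue Hmga1, Lin28 genes and let-7 targets) was tested either. They had a median of 0.927 times, with Myc at 1.08 times and Mycn at 1.03 times. Of the 24 lineage factors around Olig2, such as Olig1, Sox10 and the E-proteins, 0 were tested, with a median of 0.915 times and a highest value of 1.12 times for Tcf12, a partner of basic helix-loop-helix factors. These medians lay beside 0.923 times over all genes, so none of these partners and targets could be followed in these libraries.

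The markers of the cells that could carry Olig2 were also at background. The 13 oligodendrocyte markers had a median of 0.914 times the negative probe and 0 were over 2 times, with Aspa at 1.23 times the highest, and Mog, a myelin protein, at 0.944 times. The 12 precursor markers had a median of 0.918 times, with Neu4 at 1.02 times the highest. Of the other cell types, 8 astrocyte markers had a median of 1.02 times, 6 excitatory neuron markers 1.08 times, 6 inhibitory neuron markers 0.935 times, 6 microglia markers 0.903 times and 4 endothelial markers 0.884 times. Among the excitatory neuron markers, Slc17a7, the vesicular glutamate transporter, lay at 1.48 times, with 1.08 times in hippocampus and 1.85 times in cortex. Olig2 itself had a median of 6.3 times over all libraries, with 4.28 times in hippocampus and 9.08 times in cortex. The Olig2 probe thus gave signal over background in libraries where the medians of all 13 oligodendrocyte and all 12 precursor markers did not pass 2 times the negative probe.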

How the data were processed

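Regions of brain sections 8 µm thick were profiled with GeoMx probes and sequenced. Per the labels' protocols a region's probe tags were collected into a plate well, and the submitters' processing notes name the mouse build mm10. The deposited table holds expected counts: the authors gave 1 value per gene and library, 4 rows are not whole numbers, and the lowest value is 1 in 94 of 97 libraries. The software that made it is not given in the sources used here. Values were rounded, and the negative probe was kept out of library sizes and tests.

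The labels gave each library's genotype, treatment and brain region, which made its group. Genes were kept by filterByExpr at a minimum count of 10 (58 genes). They were scaled by TMM and tested in 1 fit of 12 groups with edgeR 4.0.16's quasi-likelihood test (R 4.3.3), with Benjamini-Hochberg adjustment over the 58 genes and a threshold of 0.05. Standard errors were taken from the F statistic, and in some Olig2 comparisons the p-value of the test was larger than they imply. Log2 CPM used a prior count of 2. A gene was called where its adjusted p was under the threshold. Negative probe values and summed counts were compared with 2-sided exact permutation tests.

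A test on simulated data used the depth of DD minus vehicle in APOE3 cortex (58 genes, 20 simulations). Counted over all simulations, 81.5% of 200 simulated 2-fold changes were recovered and 1.25% of tests of unchanged genes were called. The simulated libraries were independent, unlike neighbouring wells here (correlation 0.1886), so the rates may not hold for these data. The members and the gene lists were chosen with earlier results of these data known. Besides the 3 members, the text names the 3 genes whose levels correlate best with each member, and the highest genes of each list. Alternatives were DESeq2 1.42.0, no filter, 1 subtracted from every value, scaling to the negative probe, Mtch2 left out of the scaling, separate fits, counts summed over neighbouring wells, runs of neighbouring wells as a random block (limma 3.58.1), leaving out libraries with a negative probe of 5 or more, and leaving out each library. The ratios within a library were added after the data had been seen. Intervals of 95% are for the difference between group means, from its standard error and a normal distribution. They treat libraries as independent and do not cover libraries that share an animal or neighbouring wells. The values of 1 marker gene are not reported here.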

Additional observations from a re-analysis of the deposited data

Results flagged for a closer look

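A single library stood far from the rest of its group in 4 of 48 sets of values examined (12 groups, for the 3 genes and the negative probe), where chance gives about 1 in 20. APOE3 DD cortex library 3 was low for Ripply2 at 10.94 log2 CPM, from a count of 3, against a median of 12.93 in the others of its group. APOE3 DD hippocampus library 1 was low for Hmga2 at 13.97 log2 CPM, from a count of 23, against a median of 15.17 in the others. APOE3 vehicle cortex library 2 was low for Hmga2 at 12.63 log2 CPM, from a count of 10, against a median of 14.34 in the others. APOE3 DC hippocampus library 8 had a high negative probe at 0.8974 on the log2 scale, a value of 1.86, against a median of 0.33 in the others. None of these 4 libraries is among those with a negative probe of 5 or more, and no Olig2 value stood apart in this way.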

How the results depend on the processing

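No paired analysis was possible because the labels tie no library to an animal and the replicate numbers only follow the order of deposit. Of 49 results for the 3 genes, both the direction and the side of the threshold stayed as reported in 45 under DESeq2, 44 with 1 subtracted, 45 with Mtch2 left out of the scaling, 45 with the random block (correlation 0.1886), 41 in separate fits, 41 without libraries with a negative probe of 5 or more, 30 with summed wells, 20 with negative-probe scaling and 17 without the low-count filter. The regional calls went to 0 of 6 without the filter and 0 with negative-probe scaling for Ripply2, and likewise to 0 and 0 for Hmga2; with summed wells they were 5 for Ripply2 and 4 for Hmga2, and with the random block 5 for Hmga2. Olig2 had 1 regional call under DESeq2, 1 without the filter, 3 with negative-probe scaling and 3 with summed wells. Treatment calls of Ripply2 were 0 without the filter, 3 with negative-probe scaling and 1 with summed wells, and those of Hmga2 were 0 without the filter and 0 once the 13 libraries with a negative probe of 5 or more (the high libraries) were left out. Olig2 had 1 treatment call with negative-probe scaling. Genotype calls of Ripply2 were 0 without the filter, 0 with negative-probe scaling, 0 with summed wells and 1 with the random block. The Hmga2 regimen call was lost (0) without the filter, in separate fits, with summed wells and without the high libraries. Ripply2 gained 1 regimen call with negative-probe scaling, and Olig2 gained 1 there and 1 under DESeq2.

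Without the filter and with negative-probe scaling, in that order, these differences reversed: hippocampus minus cortex in APOE4 DC, -0.34 and -0.40 for Ripply2 and -0.47 and -0.55 for Hmga2; hippocampus minus cortex for Olig2, -0.56 and -0.56 in APOE4 DD and -0.79 and -0.86 in APOE3 DC. APOE4 minus APOE3 for Ripply2 reversed too, at 0.12 and 0.15 in DC cortex and 0.10 and 0.15 in DD hippocampus. Regional Olig2 also reversed with summed wells (-0.38 in APOE4 DD and -0.24 in APOE3 DC), in separate fits (0.20 in APOE4 DC) and without the high libraries (-0.011 in APOE4 DD). Without the high libraries, DC minus vehicle in APOE4 hippocampus was 0.010 for Ripply2 and 0.43 for Hmga2, and DD minus DC there was -0.48 for Hmga2. The no-filter fit adjusts over many more genes and also scales differently, since the median regional difference of the 58 genes was -1.58 to -0.69 there, against -0.27 to 0.31 as reported. Summing leaves 49 summed libraries; the cause of the other changes was not tested. Leaving out each library gave 6 to 6 regional calls for Ripply2, 5 to 6 for Hmga2 and 0 to 0 for Olig2, 3 to 5 treatment calls for Ripply2 and 0 to 1 for Hmga2, 2 to 3 genotype calls for Ripply2, and 0 to 1 regimen calls for Hmga2. Over all tested genes the regional calls were 199, and 208 under DESeq2, 191 with negative-probe scaling, 230 with summed wells and 238 without the filter among 119772 tests. The genotype calls were 63, and 15 with negative-probe scaling, 39 with summed wells and 42 with the random block. The regimen calls were 30, and 51 with negative-probe scaling, 105 without the filter, 4 in separate fits and 0 without the high libraries. Treatment calls were 46, and 297 without the filter. Of the 3 genes most like each member over group means, those of Ripply2 and Hmga2 were the same with 1 subtracted and negative-probe scaling, and of those of Olig2 Coa5 alone remained. Low counts limit Olig2 most, with under 10 counts in 34 of 97 libraries.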
